A study of Homo sapiens with 18 samples.

Results

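Transcripts of the ligands and receptors of the epidermal growth factor (EGF) family were followed in IMR90 ER:RAS cells. The genes are the growth factors AREG (amphiregulin), EREG (epiregulin), HBEGF (heparin-binding EGF-like growth factor), TGFA (transforming growth factor alpha), BTC (betacellulin) and NRG1 (neuregulin 1), with the receptors EGFR and ERBB3. They were taken by symbol from a table of raw read counts, in which these are 8 of 28266 rows. IMR90 is a widely used human lung fibroblast line. All cells carried ER:RAS, an oncogenic RAS fused to the hormone-binding part of the oestrogen receptor, delivered by a retrovirus according to the study's methods, and the genotype label of every library was WT. Control cells received DMSO, and cells given 100 nM 4-hydroxytamoxifen (4OHT), which switches the fusion on, underwent oncogene-induced senescence and are called senescent below. After 7 days, DMSO, IMP1088 at 300 nM or DDD86481 at 1.5 µM was added for 3 days and the cells were collected on day 10. Both compounds are N-myristoyltransferase inhibitors (NMTi), which block the attachment of the lipid myristate to proteins. Poly(A) RNA from the 6 groups was sequenced in 3 libraries each. Where a label names no separate cultures, as here, p-values measure only the spread between these libraries. A legend of the study, for an expression heatmap of cells given these treatments, gives n = 3 and calls n independent experiments. It does not name the libraries.

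Ligands of this family are made as membrane-spanning precursors and are cut free by surface proteases, chiefly ADAM metalloproteases. The released or still anchored ligand binds a receptor of the ErbB family on the same or a neighbouring cell. AREG and TGFA bind EGFR, EREG, HBEGF and BTC bind both EGFR and ERBB4, and NRG1 binds ERBB3 and ERBB4. Receptors then pair and phosphorylate each other, with ERBB2, which has no ligand of its own, as a frequent partner, and adaptors pass the signal to RAS and ERK. Several of the ligand genes are themselves induced by RAS and ERK, which makes the pathway self-feeding, and AREG and EREG are known parts of the senescence-associated secretory phenotype of fibroblasts.

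AREG and EREG are neighbours on chromosome 4, and the 250 bases before the start of each are shown because these were the ligand genes with steep rises in senescence that share 1 locus. The sequences are from RefSeq on GRCh38.p14, 5′ to 3′ on the + strand, which is the coding strand of both genes. AREG spans bases 74445136 to 74455005 and EREG spans bases 74365145 to 74388749. BTC lies on the same chromosome, HBEGF on chromosome 5, TGFA on 2, NRG1 on 8, EGFR on 7 and ERBB3 on 12. Capitals mark matches to a cyclic AMP response element (CRE, TGACGTCA) or a TATA box (TATAAA).
AREG, chr4:74444886-74445135: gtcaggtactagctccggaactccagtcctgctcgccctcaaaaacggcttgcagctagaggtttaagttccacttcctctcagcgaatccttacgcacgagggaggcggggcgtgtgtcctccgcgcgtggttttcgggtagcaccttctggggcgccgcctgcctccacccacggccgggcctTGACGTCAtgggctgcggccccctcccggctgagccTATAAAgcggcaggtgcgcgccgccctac
EREG, chr4:74364895-74365144: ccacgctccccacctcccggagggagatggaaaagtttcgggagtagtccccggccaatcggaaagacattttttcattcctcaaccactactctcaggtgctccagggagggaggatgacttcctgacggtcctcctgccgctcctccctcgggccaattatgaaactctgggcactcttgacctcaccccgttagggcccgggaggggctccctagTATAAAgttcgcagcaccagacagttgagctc
The AREG window held the CRE, whose first base is at -65 from the start, and a TATA box at -29. The EREG window held a TATA box at -32 and no CRE. Both strands were searched for these motifs and for TGANTCA, the AP-1 motif, and a loose NF-kB motif (GGGA and CC with 4 bases of any kind between them), which were found in neither window and overlap with no match shown. The same search was made in the 250 bases before the start of 35116 RefSeq promoters. Of these 1.65% held the CRE, 10.7% the TATA box, 6.57% the AP-1 motif and 22.6% the NF-kB motif. These are matches of letters, and binding was not measured.

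Library totals ran from 16143716 to 23189950 counts. Values are CPM, the counts per 1000000 counts of a TMM-scaled library, given as mean ± SD of 3 libraries. A count of 0 allows up to 3 counts, and this floor came to between 0.121 and 0.187 CPM, for counting error only. The control DMSO replicate 3 stood apart on the third principal component, which held 4.1% of the variance, with a coordinate of 57.3 against 14.8 and 27.8 for replicates 1 and 2. Comparisons with control DMSO that it moves are given without it as well. All 10 fibroblast markers were above the floor in every library, with a summed level of 24831 to 31466 CPM in control DMSO and of 16646 to 17064 CPM in senescent DMSO libraries. Of the 10, 1 was higher and 8 were lower in senescent than in control DMSO cells. DCN, LUM and COL3A1, the markers with the largest changes, had log2 differences of -8.62 ± 0.13, -5.23 ± 0.15 and -3.64 ± 0.17. As a check of the state, MKI67, a mark of cycling cells, and LMNB1, a lamin lost in senescence, fell by 7.04 and 3.69 on the log2 scale, and IL1B rose by 12.15 on that scale. The epithelial genes KRT5, KRT14 and SFTPC were at or under the floor in every library and CDH1 in 5 of the 6 groups, while summed epithelial markers rose from between 2.54 and 3.58 CPM to between 9.96 and 11.8 CPM, nearly all of it CLDN4. Summed endothelial markers were 1.05 to 1.73 CPM in control DMSO and 10.02 to 10.6 CPM in senescent DMSO libraries, and blood cell markers summed to at most 0.874 CPM in any library. The part of these genes in the results was not tested. HRAS, the RAS gene of which such fusions are made, and ESR1, the oestrogen receptor gene, were higher in senescent than in control DMSO cells by 0.85 ± 0.09 and 1.06 ± 0.13 on the log2 scale, and counts per gene do not separate the fusion from the native genes.

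AREG, EREG, HBEGF, NRG1 and EGFR, 5 of the 8 genes, had enough counts to pass the filter on low values and were tested. TGFA, BTC and ERBB3 did not pass it, with at most 8 counts in any library.

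**Figure D1:**
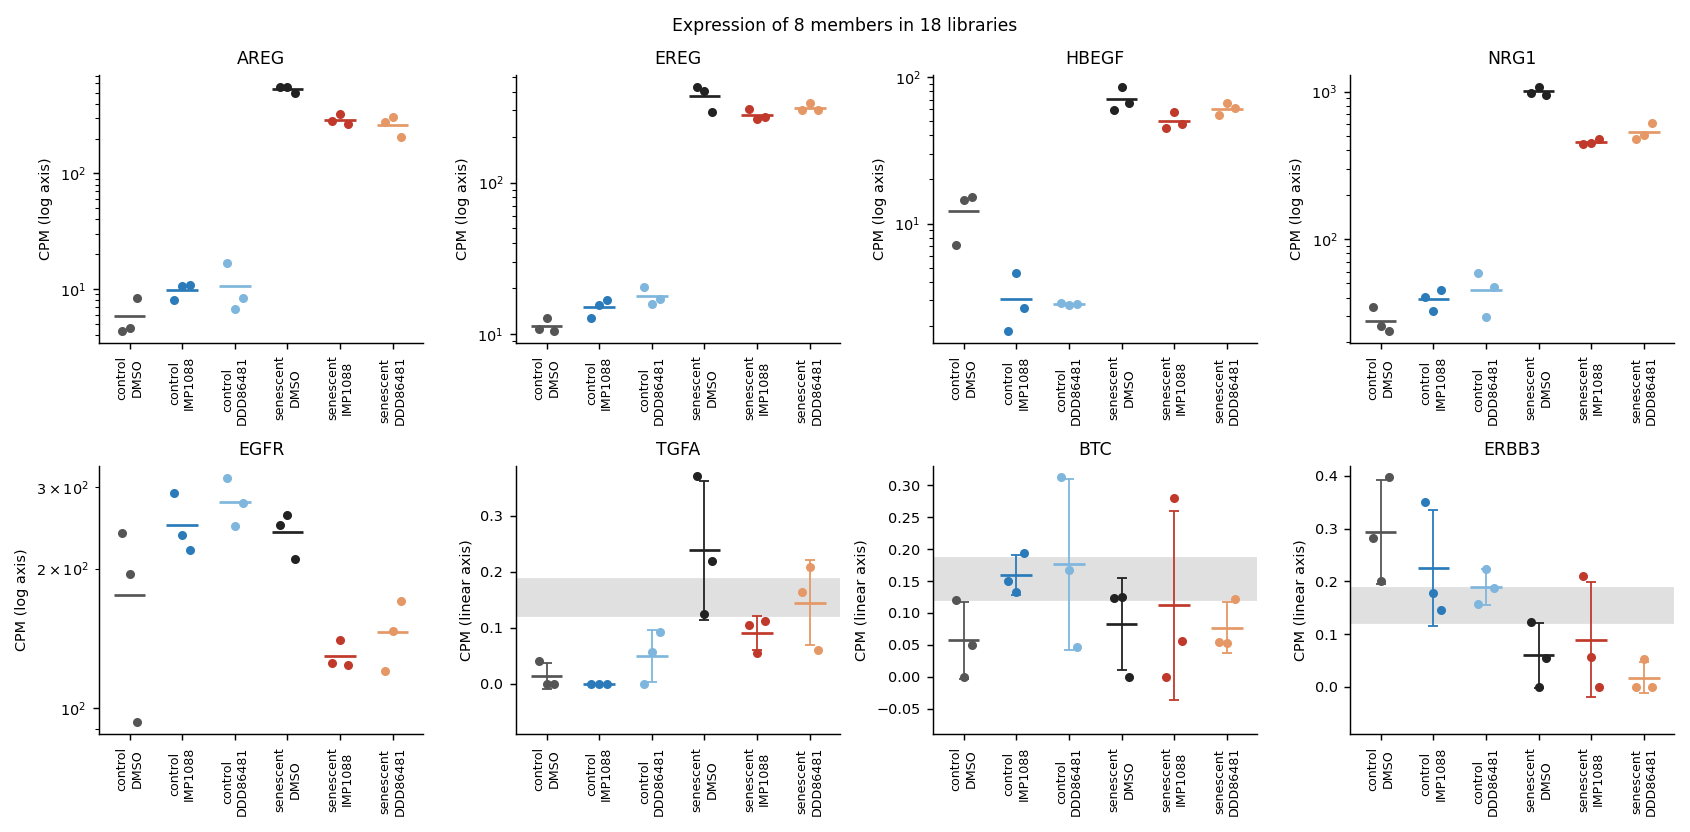
CPM of the 8 genes in the 18 libraries, with log axes for the 5 tested genes and linear axes for TGFA, BTC and ERBB3. Points are libraries, horizontal lines are means of 3 libraries, bars in the linear panels are SD and the grey band is the range of the floor of 3 counts. AREG, EREG, HBEGF and NRG1 in the senescent groups lie above every control library, whereas EGFR overlaps between control DMSO and senescent DMSO.

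Senescent cells were compared with control cells, both in DMSO, to ask which members of the family change with RAS-induced senescence. All 4 ligands with measurable RNA were higher in senescent cells, AREG by 94.2-fold, NRG1 by 35.8-fold, EREG by 33.1-fold and HBEGF by 5.77-fold. EGFR, the receptor of AREG, EREG and HBEGF, differed by less than the test could call, and ERBB3, a receptor of NRG1, was near the floor in every group. Of the 5 genes tested 4 were higher and 0 lower at an adjusted p under 0.05, and of all 14341 genes 32.5% were higher and 36% lower, 68.5% in all.

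AREG, a ligand of EGFR alone, had 4.35, 4.59 and 8.41 CPM in the control DMSO libraries and 562, 559.5 and 492 CPM in the senescent DMSO libraries. The groups were far apart, and the highest control value was that of replicate 3. The difference was 6.56 ± 0.30 on the log2 scale (± SE, n = 3 and 3, edgeR adjusted p = 7.59e-14). Without control replicate 3 it was 6.91. AREG counts carry a further limit, as 93.5% of the 75-base windows of its transcript also occur in AREGB, a second copy in the GRCh37 assembly, and the table has no row for that copy.

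EREG, which binds EGFR and ERBB4, had 10.8, 12.8 and 10.5 CPM in control and 431, 404 and 295 CPM in senescent DMSO libraries. Here too no libraries overlapped, and senescent replicate 3 was the lowest of its group. On the log2 scale the rise was 5.05 ± 0.15 (adjusted p = 1.66e-16).

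HBEGF, a ligand that binds heparan sulphate and is anchored at the cell surface before release, had 7.09, 14.4 and 15.2 CPM in control and 59.4, 85.8 and 66.1 CPM in senescent DMSO libraries. The lowest senescent library was above the highest control library. The rise was 2.53 ± 0.24 on the log2 scale (adjusted p = 7.33e-09).

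NRG1, the neuregulin that signals through ERBB3 and ERBB4, had 34.3, 25.5 and 23.9 CPM in control libraries and 981, 1079 and 947 CPM in senescent libraries. The groups did not overlap, and the spread within the senescent group was small beside the difference of 5.16 ± 0.21 on the log2 scale (adjusted p = 1.59e-14). Of the NRG1 exon bases 9.47% are shared with genes on the same strand, so a part of its count may belong to them.

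TGFA, a ligand of EGFR, was read 1, 0 and 0 times in the control DMSO libraries and 6, 2 and 4 times in the senescent DMSO libraries. BTC, a ligand of EGFR and ERBB4, was read 3, 0 and 1 times in control and 2, 2 and 0 times in senescent DMSO libraries. Nearly all of these counts lie at or under the floor of 3 counts, and no fold is given for either ligand. Over all 18 libraries the highest count was 6 for both TGFA and BTC.

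EGFR had 239, 195 and 93.3 CPM in control DMSO libraries and 248, 261 and 210 CPM in senescent DMSO libraries. The groups overlapped, since control replicate 1 lay above senescent replicate 3, and the low control value was that of replicate 3. The log2 difference was 0.45 ± 0.22 with a 95% interval from 0.00 to 0.90 (adjusted p = 0.0701). Without control replicate 3 it was 0.15 (adjusted p = 0.355) and without control replicate 1 it was 0.74 (adjusted p = 0.00333), so that the call turned on 1 library, and with no filter on low counts it was 0.48 (adjusted p = 0.00302).

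ERBB3, which binds NRG1 but needs a partner receptor for its kinase activity, was read 7, 5 and 8 times in control DMSO libraries and 2, 0 and 1 times in senescent DMSO libraries. At this depth the RNA was hardly detectable in fibroblasts of either state.

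The rest of the family was measured from a list of 7 further ligands and receptors. EPGN, NRG2, NRG3, NRG4 and ERBB4 had too few counts to be tested. EGF, the founding ligand, was low and fell from 2.27 ± 0.235 to 0.556 ± 0.188 CPM, a log2 difference of -2.02 ± 0.29 (adjusted p = 2.87e-06). ERBB2, the co-receptor without a ligand, fell from 100.3 ± 6.25 to 23 ± 5.64 CPM, a log2 difference of -2.12 ± 0.13 (adjusted p = 1.18e-11). ERBB2 thus fell while the 4 ligands rose.

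To compare levels between genes, CPM was divided by the length of each gene's exons. Per kilobase, control DMSO cells had 11.01 ± 4.67 CPM of EGFR, 4.09 ± 1.50 of HBEGF, 3.52 ± 1.39 of AREG, 1.99 ± 0.220 of EREG and 1.31 ± 0.263 of NRG1. Receptor RNA was thus above that of each ligand in the mean of these libraries. In senescent DMSO cells the order of the means was AREG with 328 ± 24.1 CPM per kilobase, EREG with 65.9 ± 12.5, NRG1 with 46.9 ± 3.22, HBEGF with 23.6 ± 4.59 and EGFR with 15.1 ± 1.67. In the mean all 4 ligands had then moved above the receptor. With the length of the MANE transcript in place of all exons NRG1 (83.7) stood above EREG (81.6) in senescent DMSO cells. By that length HBEGF had a mean of 29.9 and EGFR of 24.2 in these cells, a narrower gap. The choice of this length was made after the data were seen.

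**Figure D2:**
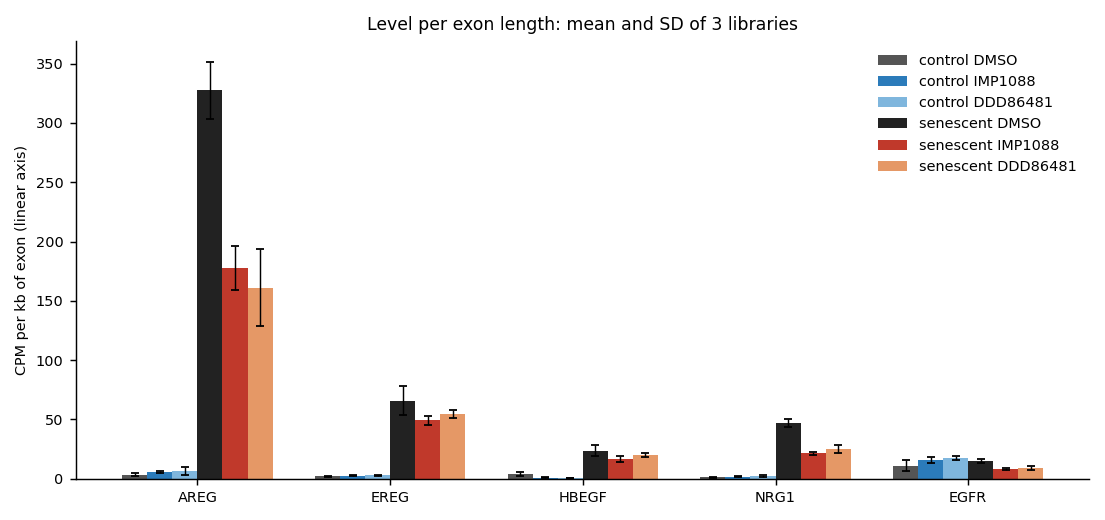
Level of the 5 tested genes as CPM per kilobase of exon on a linear axis from 0, in the 6 groups. Bars are means and whiskers SD of 3 libraries. AREG reaches 328 in senescent DMSO cells, and EGFR stays between 8.15 and 17.5 in the 6 groups.

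Genes that act before and after the receptor were counted from lists of release and export factors, adaptors, inhibitors and transcripts induced by ERK. The lists were chosen with earlier results of these data known, so their counts are a description only. The median log2 difference of all genes tested was -0.051, and 32.5% of them were higher and 36% lower (68.5% in all). Of 12 genes for ligand release and export, 8 were higher and 2 lower in senescent cells, with a median log2 difference of 0.79. ADAM19, a metalloprotease that can cut neuregulin, rose by 3.50 ± 0.15 (adjusted p = 2.04e-14), from 76.1 ± 21.0 to 864 ± 25.7 CPM. RHBDF2, the iRhom that carries ADAM17 to the cell surface, rose by 3.14 ± 0.14 on the log2 scale, and ADAM12, which can cut HBEGF, rose by 2.90 ± 0.14. ADAM17, the chief sheddase of AREG, EREG, HBEGF and TGFA, was slightly lower, with a log2 difference of -0.38 ± 0.10 (adjusted p = 0.00166).

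Of 11 receptor adaptors 5 were higher and 2 lower, with a median log2 difference of 0.27, beside 32.5% of all genes higher and 36% lower. SHC1, which docks on the phosphorylated receptor, rose by 1.64 ± 0.10 on the log2 scale, GRB2, which brings SOS to it, rose by 0.79 ± 0.08, and GAB1, a docking protein, fell by 1.29 on that scale. Of 9 receptor inhibitors 3 were higher and 4 lower, beside the same shares of all genes. ERRFI1, which binds and silences the EGFR kinase and is itself an ERK-induced gene, rose by 1.77 ± 0.14 (adjusted p = 6.61e-10). LRIG3, a membrane protein of the family that restrains ErbB receptors, fell by 2.86 and SOCS5, which promotes EGFR degradation, fell by 1.67 on the log2 scale.

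Of 13 ERK output transcripts 12 were higher and 0 lower, with a median log2 difference of 1.56. The ERK phosphatases DUSP4, DUSP5 and DUSP6 rose by 4.67 ± 0.13, 3.25 ± 0.17 and 2.92 ± 0.12 on the log2 scale, and IER3, an early ERK target, rose by 3.55 ± 0.19. The counts of these 4 lists were the same without control DMSO replicate 3.

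IMP1088 and DDD86481 were each compared with DMSO in senescent cells, to ask how the ligands and receptor respond when N-myristoylation is blocked. AREG, NRG1 and EGFR were lower with either compound, by between 1.65- and 2.20-fold. EREG and HBEGF had smaller differences. Both comparisons use the same 3 senescent DMSO libraries, and the compounds were given at different doses, so their values are set side by side only. In bulk RNA, fewer cells of a kind and less RNA per cell cannot be told apart.

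With IMP1088, 4 of the 5 genes were lower and 0 higher, beside 23.9% of all genes lower and 20.6% higher (44.4% in all). With DDD86481, 3 were lower and 0 higher, beside 23.1% lower and 20.1% higher (43.2% in all).

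AREG had 286, 325 and 265 CPM in the senescent IMP1088 libraries and 276.5, 310.4 and 207 CPM in the senescent DDD86481 libraries. Every NMTi library lay under the lowest senescent DMSO library (492 CPM), and the 2 NMTi groups overlapped each other. The log2 difference from DMSO was -0.88 ± 0.23 with IMP1088 (adjusted p = 0.0033) and -1.02 ± 0.23 with DDD86481 (adjusted p = 0.00104). Both remained far above the control DMSO mean of 5.78 ± 2.28 CPM.

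NRG1 had 440, 451 and 478.5 CPM with IMP1088 and 477, 508 and 615 CPM with DDD86481. All were under the lowest senescent DMSO library (947 CPM). NRG1 thus differed by -1.13 ± 0.18 on the log2 scale with IMP1088 (adjusted p = 2.97e-05) and -0.91 ± 0.18 with DDD86481 (adjusted p = 0.000303).

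EREG had 305, 264.5 and 273 CPM with IMP1088, a log2 difference of -0.42 ± 0.13 (adjusted p = 0.0104). It had 300.1, 334 and 302.5 CPM with DDD86481, a log2 difference of -0.27 ± 0.13 (adjusted p = 0.0941). Both groups overlapped senescent DMSO, whose replicate 3 had 295 CPM. The IMP1088 call was lost without senescent DMSO replicate 1 (-0.31, adjusted p = 0.0785), and a DDD86481 call was made without senescent DMSO replicate 3 (-0.42, adjusted p = 0.00944).

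HBEGF had 44.6, 58.1 and 47.9 CPM with IMP1088 and 55.2, 66.0 and 61.1 CPM with DDD86481. These overlapped the senescent DMSO libraries, and neither log2 difference passed, at -0.49 ± 0.22 (adjusted p = 0.0753) and -0.21 ± 0.22 (adjusted p = 0.454). Their 95% intervals ran from -0.94 to -0.03 and from -0.66 to 0.24. The IMP1088 difference passed with the replicate number as a block (-0.48, adjusted p = 0.0230), in a fit of only the 2 groups (-0.45, adjusted p = 0.00182) and with no filter on low counts (-0.50, adjusted p = 0.0076).

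EGFR had 125, 140 and 124 CPM with IMP1088 and 120, 146.5 and 170 CPM with DDD86481. All 6 libraries lay under the lowest senescent DMSO library (210 CPM). Log2 differences were -0.89 ± 0.22 (adjusted p = 0.00238) and -0.72 ± 0.22 (adjusted p = 0.0107). The DDD86481 call was lost without senescent DDD86481 replicate 1 (-0.60, adjusted p = 0.0611).

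TGFA was read between 1 and 4 times, BTC between 0 and 5 times and ERBB3 between 0 and 4 times in the senescent NMTi libraries, at or near the floor. ERBB2 had 24.4 ± 1.67 CPM with IMP1088 and 26.1 ± 3.17 CPM with DDD86481, log2 differences of 0.09 ± 0.13 and 0.18 ± 0.13 that did not pass. EGF had 0.258 ± 0.0909 CPM with IMP1088, a log2 difference of -1.10 ± 0.41 (adjusted p = 0.0367), and 0.299 ± 0.117 CPM with DDD86481, a difference of -0.88 ± 0.40 that did not pass (adjusted p = 0.087).

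**Figure D3:**
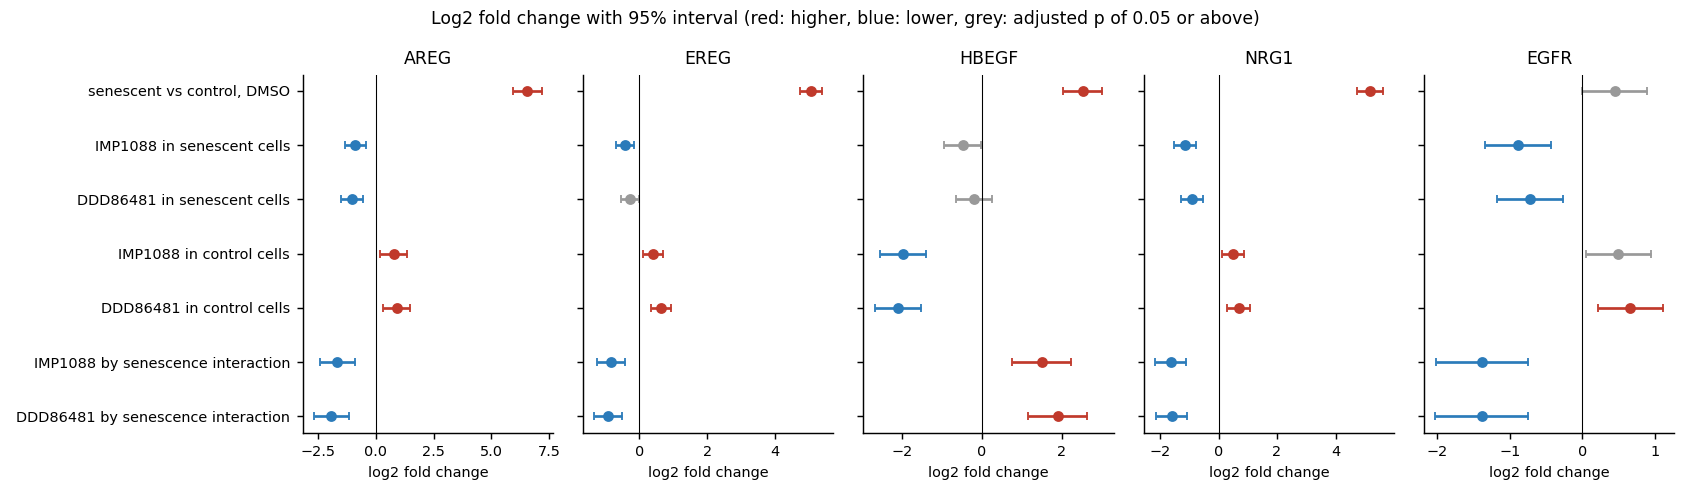
Log2 fold change of the 5 tested genes in the 7 comparisons, with 95% intervals from the edgeR fit. Red and blue points passed an adjusted p of 0.05 upwards and downwards, and grey points did not. AREG and NRG1 lie under 0 for both NMTi in senescent cells and above 0 in control cells, and HBEGF lies near -2 in control cells.

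In the lists around the receptor more genes were lower than higher in senescent cells given NMTi. Over all genes 23.9% were lower and 20.6% higher with IMP1088, and 23.1% lower and 20.1% higher with DDD86481. Of the 12 genes for ligand release and export, 3 were higher and 7 lower with each compound, with median log2 differences of -0.35 for IMP1088 and -0.38 for DDD86481, beside -0.043 and -0.037 over all genes. ADAM19 fell by 1.77 with IMP1088 and by 1.66 with DDD86481 on the log2 scale, RHBDF2 by 0.34 and 0.42, and ADAM12 by 0.66 and 0.57. ADAM17, in contrast, rose by 0.62 ± 0.10 with IMP1088 and 0.78 ± 0.10 with DDD86481.

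Of the adaptors, 1 was higher and 6 lower with IMP1088, and 2 were higher and 4 lower with DDD86481. SHC1 fell by 0.45 and 0.47 on the log2 scale. GRB2 had log2 differences of -0.21 ± 0.08 (adjusted p = 0.036) and -0.11 ± 0.08 (adjusted p = 0.285). GAB1 had -0.45 ± 0.18 (adjusted p = 0.0512) and -0.59 ± 0.18 (adjusted p = 0.0138).

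Of the inhibitors, 1 was higher and 6 lower with IMP1088, and 1 was higher and 5 lower with DDD86481, with medians of -0.60 and -0.59. ERRFI1 fell by 1.39 and 1.47 on the log2 scale, from 380 ± 26.3 CPM to 145 ± 12.6 and 137 ± 15.8 CPM. LRIG3 fell by 0.60 and 0.63, and SOCS5 had -0.44 ± 0.12 (adjusted p = 0.0066) and -0.28 ± 0.12 (adjusted p = 0.0686).

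Of the ERK output transcripts, 1 was higher and 8 lower with each compound, with medians of -0.47 and -0.48. DUSP4 fell by 1.22 and 1.29 and DUSP6 by 0.41 and 0.44 on the log2 scale. IER3 was the higher one, by 0.44 ± 0.17 and 0.45 ± 0.17 (adjusted p = 0.0373 and 0.0366), while DUSP5 did not pass, with -0.11 ± 0.15 and -0.24 ± 0.15. Summed fibroblast markers also moved in these libraries, to between 11885 and 12159 CPM with IMP1088 and between 11559 and 12346 CPM with DDD86481, and their part in the results was not tested. Leaving control DMSO replicate 3 out of the shared fit moved no count of these 4 lists by more than 1.

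**Figure D4:**
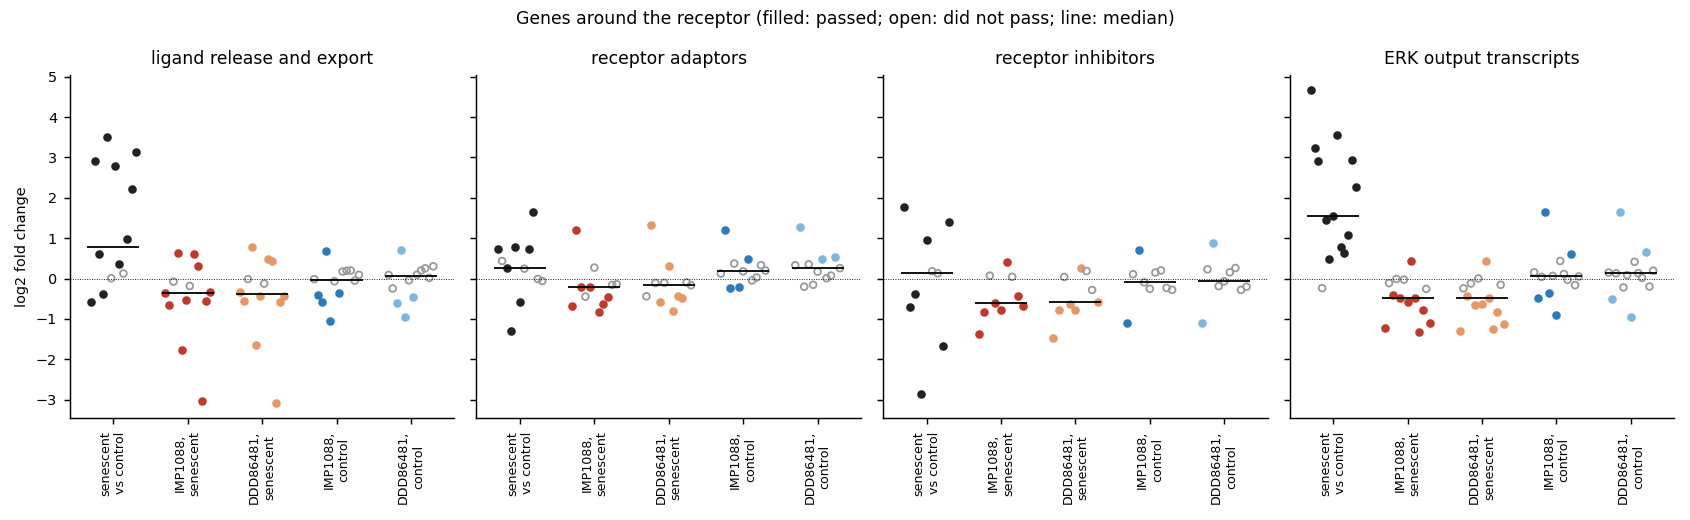
Log2 fold change of every tested gene of 4 lists (12 release and export, 11 adaptor, 9 inhibitor and 13 ERK output genes) in the 5 comparisons. Filled points passed an adjusted p of 0.05, open points did not, and lines are medians. The ERK output median is 1.56 in senescent against control cells and -0.47 and -0.48 with the NMTi in senescent cells.

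The same compounds were compared with DMSO in control cells, to ask how the family responds outside senescence. Here the ligands moved apart. HBEGF fell by 3.95-fold with IMP1088 and 4.31-fold with DDD86481, while AREG, EREG and NRG1 were modestly higher. Of the 5 genes tested 3 were higher and 1 lower with IMP1088, beside 16.3% of all genes higher and 17.4% lower (33.7% in all). With DDD86481, 4 were higher and 1 lower, beside 17.8% higher and 18.7% lower (36.6% in all). Both comparisons share the control DMSO libraries, among them replicate 3. Other genes moved in the same libraries. Summed epithelial markers were 0.846 to 1.56 CPM with IMP1088 and 1.07 to 1.23 CPM with DDD86481, and summed endothelial markers 2.62 to 3.36 and 2.92 to 3.79 CPM. Of the 2 epithelial markers tested 1 was lower with each compound. Of the 3 endothelial markers 1 was higher and 1 lower with IMP1088, and 1 higher and 0 lower with DDD86481, so the sums hide moves of single genes. MKI67 fell by 2.58 and 2.46 and LMNB1 by 1.39 and 1.28 on the log2 scale. Their part in the results was not tested. With IMP1088 the rises of AREG, EREG and NRG1 did not pass under upper quartile scaling (adjusted p from 0.0523 to 0.0709) or in a fit of only the 2 groups (0.0722 to 0.0902), nor did that of AREG by DESeq2 (0.067). With DDD86481 AREG, NRG1 and EGFR did not pass in a fit of only the 2 groups (0.0707 to 0.121).

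HBEGF had 1.86, 4.63 and 2.67 CPM with IMP1088 and 2.87, 2.80 and 2.80 CPM with DDD86481. All lay under the lowest control DMSO library (7.09 CPM) and rested on at least 37 counts each. HBEGF differed by -1.98 ± 0.27 on the log2 scale with IMP1088 (adjusted p = 1.54e-05) and -2.11 ± 0.28 with DDD86481 (adjusted p = 1.04e-05). Without control DMSO replicate 3 the differences were -1.80 and -1.93.

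AREG had 8.03, 10.5 and 10.8 CPM with IMP1088 and 16.9, 6.67 and 8.32 CPM with DDD86481. Both groups overlapped control DMSO through its replicate 3. The log2 difference was 0.78 ± 0.28 (adjusted p = 0.0372) and 0.90 ± 0.28 (adjusted p = 0.0165). Without control DMSO replicate 3 the differences were larger, at 1.13 and 1.25. DDD86481 replicate 1 was the highest library, and without it the difference was 0.41 (adjusted p = 0.223). The DDD86481 call was also lost without control DMSO replicate 1 (0.73, adjusted p = 0.0505) or 2 (0.76, adjusted p = 0.0686), and the IMP1088 call without control DMSO replicate 1 (0.61, adjusted p = 0.105) or 2 (0.65, adjusted p = 0.127) or IMP1088 replicate 2 (0.73, adjusted p = 0.0917) or 3 (0.72, adjusted p = 0.0954).

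EREG had 12.8, 15.5 and 16.8 CPM with IMP1088, a log2 difference of 0.40 ± 0.15 (adjusted p = 0.0378), and its lowest library met the highest of control DMSO. With the replicate number as a block in a fit of these groups alone it was 0.40 (adjusted p = 0.0546), and it was lost without control DMSO replicate 1 or 3 or IMP1088 replicate 2 or 3 (0.33 to 0.39, adjusted p from 0.0801 to 0.142). With DDD86481 it had 20.5, 15.8 and 17.0 CPM, each above every control DMSO library, and the difference was 0.64 ± 0.14 (adjusted p = 0.00183).

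NRG1 had 40.7, 32.4 and 45.3 CPM with IMP1088 and 58.4, 29.5 and 47.4 CPM with DDD86481. Both groups overlapped control DMSO, whose replicate 1 had 34.3 CPM. Log2 differences were 0.50 ± 0.18 (adjusted p = 0.0439) and 0.69 ± 0.18 (adjusted p = 0.00656). The IMP1088 call was lost without control DMSO replicate 2 or 3 or IMP1088 replicate 1 or 3 (0.40 to 0.48, adjusted p from 0.101 to 0.153), and the DDD86481 call without DDD86481 replicate 1 (0.47, adjusted p = 0.0651).

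EGFR had 290.5, 236 and 219 CPM with IMP1088 and 313, 247 and 276 CPM with DDD86481. The IMP1088 libraries overlapped control DMSO and the DDD86481 libraries lay above it. The log2 difference was 0.50 ± 0.22 (adjusted p = 0.0801) and 0.67 ± 0.22 (adjusted p = 0.0204). Without control DMSO replicate 3 the differences were 0.20 (adjusted p = 0.32) and 0.36 (adjusted p = 0.0554), and without DDD86481 replicate 1 the second was 0.58 (adjusted p = 0.087). The IMP1088 difference passed without control DMSO replicate 1 (0.78, adjusted p = 0.00449), with the replicate block in a fit of the 2 groups (0.59, adjusted p = 0.0484), and with no filter on low counts (0.50, adjusted p = 0.00563).

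TGFA was read 0 to 2 times, BTC 1 to 6 times and ERBB3 3 to 7 times in the control NMTi libraries. ERBB2 differed from DMSO by 0.04 ± 0.12 with IMP1088 and 0.05 ± 0.12 with DDD86481 on the log2 scale and did not pass. EGF fell by 2.15 with IMP1088 and by 1.95 with DDD86481 on the log2 scale (adjusted p = 7.54e-06 and 1.92e-05), from 2.27 ± 0.235 CPM to 0.509 ± 0.023 and 0.588 ± 0.121 CPM. EGF and HBEGF thus both fell with each compound in control cells, while AREG, EREG and NRG1 did not.

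The medians of the 4 lists lay between -0.094 and 0.26 in control cells. Of the release and export genes 1 was higher and 4 lower with IMP1088, and 1 higher and 3 lower with DDD86481. ADAM17 rose by 0.67 ± 0.09 and 0.70 ± 0.09, and ADAM19 fell by 1.04 and 0.95 on the log2 scale. Of the adaptors 2 were higher and 2 lower with IMP1088 and 3 higher and 0 lower with DDD86481. Of the inhibitors 1 was higher and 1 lower with each, and the lower one was ERRFI1, which fell by 1.10 and 1.09 on the log2 scale. Of the ERK output transcripts 2 were higher with each compound, and 3 were lower with IMP1088 and 2 with DDD86481. Without control DMSO replicate 3, 3 ERK output genes were higher and 1 lower with each compound, 2 adaptors were higher and 0 lower with each, and 2 inhibitors were lower with IMP1088 and 3 with DDD86481. Of the release and export genes 2 were then higher and 3 lower with IMP1088, and 2 higher and 4 lower with DDD86481. The shares of all genes in that fit are not given, so these counts stand without a baseline. DUSP6 did not pass in either comparison (0.04 ± 0.12 and 0.13 ± 0.12).

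Whether a compound acted differently in senescent and control cells was tested by an interaction term, taken as the log2 effect under senescence less the effect in control cells. All 5 genes passed for both compounds, beside 26.2% of all genes for IMP1088 and 30.3% for DDD86481. AREG, EREG, NRG1 and EGFR had a negative term, beside 14.2% and 15.9% of all genes with one, and HBEGF had a positive term, beside 12.1% and 14.4%. For AREG the term was -1.66 ± 0.36 with IMP1088 (adjusted p = 0.00222) and -1.92 ± 0.36 with DDD86481 (adjusted p = 0.000663). For HBEGF, which fell in control cells and did not pass in senescent cells, it was 1.49 ± 0.35 (adjusted p = 0.00412) and 1.90 ± 0.36 (adjusted p = 0.000678).

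The order of the 6 groups was read from their means. AREG, EREG and NRG1 were lowest in control DMSO and highest in senescent DMSO cells, with the control NMTi groups next to the first and the senescent NMTi groups next to the last. For AREG and NRG1 the step from the senescent NMTi groups up to senescent DMSO was free of overlap, and for EREG the senescent DMSO and DDD86481 libraries overlapped. HBEGF was lowest in the control NMTi groups, and control DMSO and all senescent groups lay above them without overlap. EGFR was lowest in senescent IMP1088 cells (130 ± 9.12 CPM) and highest in control DDD86481 cells (279 ± 33.4 CPM), and each group overlapped the next in the order.

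The genes nearest in pattern to each member were found by the root mean square difference of log2 CPM, each gene centred on its own mean, over the 18 libraries. Nearest to AREG were TFPI2 (0.35) and RASD1 (0.40), to EREG CDCP1 (0.30) and TMEM154 (0.30), and to NRG1 BMP2 (0.26) and ZSWIM5 (0.37). Nearest to HBEGF were PPP1R14B-AS1 (0.40) and NT5E (0.41), and to EGFR LAMC1 (0.091) and ROBO1 (0.11). Among the members themselves EREG and NRG1 were closest (0.37), then AREG and EREG (0.61). By this measure EREG was thus nearer to NRG1, on chromosome 8, than to its neighbour AREG. The measure counts the size of a change as well as its shape. On the log2 scale the range over the libraries was 6.98 for AREG, 5.34 for EREG, 5.49 for NRG1, 5.45 for HBEGF and 1.75 for EGFR.

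AREG and EREG lie beside the CXC chemokine cluster, and the genes of the table that overlap 1 Mb to either side of the AREG start were described, a window chosen after the data were seen. It held 23 genes, of which 12 were tested. Of these 11, with AREG and EREG among them, were higher and 1 lower in senescent than in control DMSO cells. Over all genes 32.5% were higher and 36% lower. PF4 and PPBP, among the higher ones, had at most 3 counts in any control DMSO library. They passed the filter through the senescent groups and could hardly have come out lower, so they add no weight to the count. The chemokines CXCL5, CXCL3 and CXCL8, which attract neutrophils, had log2 differences of 10.99 ± 0.27, 8.54 ± 0.24 and 8.21 ± 0.39. PARM1, on the far side of AREG, was the lower gene, with -1.54 ± 0.16. BTC, 299.6 kb from AREG and between it and PARM1, was at or under the floor in every control and senescent DMSO library, and EPGN, at -136.7 kb on the chemokine side, was not tested. With IMP1088 and DDD86481 in senescent cells the genes of the window moved both ways. CXCL6 was lower, as AREG was, with log2 differences of -1.27 ± 0.20 and -1.12 ± 0.20, and EREG was lower with IMP1088. CXCL2 rose by 1.77 ± 0.12 and 2.09 ± 0.12 and PARM1 by 1.62 ± 0.16 and 1.25 ± 0.16, and PPBP was higher with IMP1088. CXCL5 had -0.00 ± 0.17 and 0.11 ± 0.17, and CXCL8, CXCL1, CXCL3, PF4 and MTHFD2L did not pass with either compound.

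**Figure D5:**
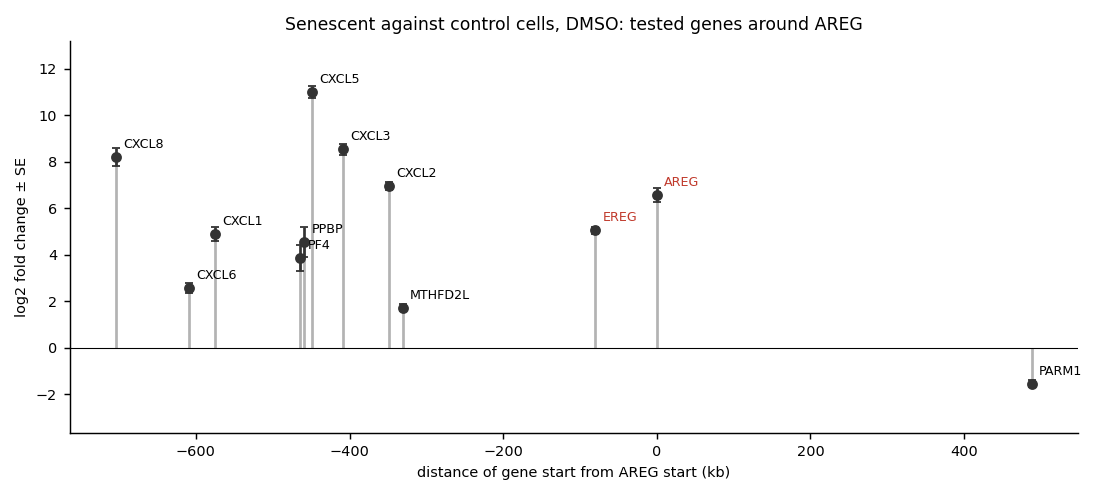
Log2 fold change of the 12 tested genes around AREG in senescent against control DMSO cells (± SE), by the distance of each gene's start from that of AREG in kilobases. EREG and AREG, in red, and 9 other genes lie above 0 and PARM1 lies under it. PF4 and PPBP had at most 3 counts in any control DMSO library, so that their values are no bound and could hardly lie under 0.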

How the data were processed

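Poly(A) RNA of IMR90 ER:RAS cells was measured in 18 libraries, 3 for each of 6 groups taken from the labels. Raw counts of reads were deposited by the authors as a single table, which had 28266 gene rows, 6836 of them without a count. The study's methods name directional libraries with 75-base single-end reads aligned to hg19 by TopHat in first-strand mode with Ensembl annotation, and its software list names HTSeq, whereas the submitters' processing notes name hg38, DRAGEN, STAR 2.7.8a and DESeq2 1.32.0. Which of these made the table was not settled and the strand setting of the counting step is not given in the sources used here, so counts of overlapping genes are uncertain. Positions, promoters and motifs came from RefSeq on GRCh38.p14, and exon lengths, overlaps and the AREGB copy from GENCODE on GRCh37. In the table the DDD86481 libraries are named PCLX001, and the labels give both names.

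From the deposited counts, filterByExpr in edgeR 4.0.16 (R 4.3.3) kept 14341 genes with 99.96% of counts. TMM scaling and edgeR's quasi-likelihood test followed, in 1 fit of the 18 libraries over 6 groups with no block. P-values were adjusted by Benjamini-Hochberg over all genes tested, at 0.05. Each SE came from the F statistic and the log2 fold change, and a prior count of 2 was used for log2 CPM. Members and lists were chosen with earlier results of these data known. The text names all 8 members, the 3 genes of each list with the largest change past the threshold in senescence, the other ligands and receptors, ADAM17, ERRFI1, DUSP6, HRAS, ESR1 and, for each tested member, the 2 nearest genes in pattern. Markers of other cell types are given by their sums and, in places, by counts of genes. The genes around AREG, NKD2 and EGR1 were named after their values were seen. A list of 6 senescence genes served as a check, and 4 were higher and 2 lower in senescent than in control DMSO cells.

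No library was a duplicate, since chi-square per gene between libraries of a group was 5.26 or more. Pairing by replicate number was checked by correlating deviations from the group means. In the comparisons made, every r was above 0.1 only for control DMSO with control IMP1088 (0.394, 0.123 and 0.231). The labels name no shared batch, so this pairing rests on the correlations. Alternatives were RLE and upper quartile scaling, DESeq2 1.42.0, no filter, only the groups compared, a replicate block and leaving out each library.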

Additional observations from a re-analysis of the deposited data

Results flagged for a closer look

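Each of the 5 tested genes responded differently to each compound in senescent and in control cells, by a test of the difference itself in the edgeR fit. The term is the log2 effect under senescence less the effect in control cells, and n is 3 libraries in each of the 4 groups of a term. For IMP1088 it was -1.66 for AREG, -0.82 for EREG, -1.63 for NRG1, -1.39 for EGFR and 1.49 for HBEGF. For DDD86481 it was -1.92 for AREG, -0.91 for EREG, -1.60 for NRG1, -1.39 for EGFR and 1.90 for HBEGF. The terms of the 2 compounds share the senescent and control DMSO libraries and are not independent.

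For AREG, NRG1 and EREG the difference was negative in senescent cells and positive in control cells with each compound, although EREG with DDD86481 did not pass in senescent cells. For EGFR the sign was the same way round, and the control difference with IMP1088 did not pass. For HBEGF the difference in control cells was -1.98 and -2.11 and that in senescent cells -0.49 and -0.21. Without control DMSO replicate 3, the EGFR terms were -1.08 and -1.08 and the AREG terms -2.01 and -2.27.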

How the results depend on the processing

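The higher AREG, EREG, HBEGF and NRG1 in senescent cells, the lower AREG and NRG1 with each compound in senescent cells, the lower HBEGF in control cells and the 10 interaction terms kept their direction and passed in every alternative run. Of 485 values of the tested members over 25 alternative settings, 445 kept their call and direction, 31 lost a call, 9 gained one and 0 reversed. The count of members called in senescent against control cells went from 4 of 5 tested to 7 of 8 with no filter, where 48.1% of all genes were called against 68.5%, as EGFR (0.48, adjusted p = 0.00302) and, on counts at or near the floor in at least 1 group, TGFA (higher, adjusted p = 0.00878) and ERBB3 (lower, adjusted p = 0.0491) passed. For IMP1088 in control cells it was 4, and 1 with only the groups compared and with upper quartile scaling, and from 1 to 3 with a library left out. For DDD86481 in control cells it was 5, and 2 with only the groups compared, and from 2 to 5 with a library left out, the lowest without control DDD86481 replicate 1. With a library left out it also ran from 2 to 4 for DDD86481 and from 3 to 4 for IMP1088 in senescent cells and from 4 to 5 for senescent against control cells. For IMP1088 in senescent cells it was 5 with no filter, with only the groups compared and with the replicate block, as HBEGF passed. The cause was not tested. With no filter the share of all genes called fell to 29.5% for IMP1088 and 28.3% for DDD86481 in senescent cells and to 22.4% and 24.3% in control cells, where more low genes were tested, and to 20% and 21.0% in control cells with only the groups compared. Upper quartile scaling moved the median of all genes by -0.15 in senescent against control cells. The order of the group means was the same for the 5 tested genes under each scaling. With the replicate block over 18 libraries the only member call to change was HBEGF with IMP1088 in senescent cells (-0.48), and in the fit of control DMSO and IMP1088 with the block EREG (0.40) lost and EGFR (0.59) gained its call. Depth limits what can be said of TGFA, BTC and ERBB3, which lie at or near the floor of 3 counts.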

Other observations

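NKD2, which escorts TGFA to the cell surface and is itself N-myristoylated, was the gene of the release and export list that differed most with NMTi in senescent cells, and it was singled out after its values were seen. It had 8.42 ± 1.65 CPM in control and 16.7 ± 1.65 CPM in senescent DMSO libraries, a log2 difference of 0.98 ± 0.28 (adjusted p = 0.00374). It fell to 2.03 ± 0.958 CPM with IMP1088 and to 1.94 ± 0.938 CPM with DDD86481 in senescent cells, with log2 differences of -3.02 ± 0.33 (adjusted p = 3.76e-07) and -3.07 ± 0.33 (adjusted p = 3.67e-07). In control cells it had 9.70 ± 2.701 and 10.1 ± 3.04 CPM and did not pass (0.20 ± 0.28 and 0.25 ± 0.28). The interaction terms were -3.22 ± 0.43 and -3.33 ± 0.43 (adjusted p = 2.57e-05 and 1.85e-05). TGFA, its known cargo, was at or near the floor in the same libraries.

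EGR1, an early ERK target, was the ERK output transcript that did not pass in senescent against control DMSO cells (-0.24 ± 0.23, adjusted p = 0.362), and it was likewise singled out after its values were seen. In control cells it rose from 197 ± 38.1 CPM to 620 ± 144 CPM with IMP1088 and 619 ± 226 CPM with DDD86481, log2 differences of 1.65 ± 0.23 for both (adjusted p = 1.71e-05 and 1.77e-05). In senescent cells the differences were -0.01 ± 0.23 and -0.12 ± 0.23 and did not pass. The interaction terms were -1.66 ± 0.32 and -1.77 ± 0.32 (adjusted p = 0.000896 and 0.000514).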
